A study of Mus musculus with 8 samples.

Results

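Collagen genes are described here in mouse subcutaneous fat. They were chosen by name, as every gene whose mouse symbol is Col, a type number, the letter a and a chain number, which gave 31 of the 18022 genes in the deposited count table. The 31 fall into 6 fibrillar collagens (types I, III and V), 8 collagens of basement membranes (types IV, XV and XVIII), 5 chains of type VI and 12 others. Col2a1, Col11a1 and Col11a2, further fibrillar chains whose symbols fit the rule, are not among the 31 found and so were not analysed. The study compared 4 libraries labelled KO, genotype Pkd1adipo delta/delta, with 4 labelled WT, genotype Pkd1(flox/flox), each from its own C57BL/6J mouse (back-crossed 4x). By Pkd1 the study means protein kinase D1, a serine/threonine kinase with the gene symbol Prkd1, and its title places the deletion in adipocytes. All libraries were poly(A) RNA of whole subcutaneous adipose tissue, and the labels name no Cre line, age, sex or diet.

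Collagens are helices wound from several chains that give tissues their tensile strength. Fibrillar collagens form the cables of connective tissue, type IV forms the sheet-like net of basement membranes, and type VI forms beaded filaments that link basement membranes to the fibrils around them. In fat, every adipocyte is wrapped in its own basement membrane, while fibroblasts and progenitor cells make most of the interstitial fibrils, and the stiffness of this matrix is known to limit how far adipocytes can enlarge.

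Each library held between 2617755 and 2873457 reads. Reads of the targeted gene did not differ beyond the spread: Prkd1 had 71, 108, 84 and 94 reads in KO1 to KO4, against 88, 72, 94 and 73 reads in WT1 to WT4, a log2 fold change of 0.06 ± 0.15 (standard error; edgeR adjusted p = 0.998). The deletion could thus not be seen in the counts, and libraries are called by their labels, KO and WT, with the replicate number. The adipocyte genes Adipoq and Plin1 were high in all 8 libraries, at no less than 1020 and 1359 CPM (counts-per-million, on library sizes scaled by TMM, the trimmed mean of M-values). Skeletal muscle markers were not even across labels. Their summed level was 3527, 2230, 473 and 4020 CPM in KO1 to KO4, against 439, 246, 642 and 151 CPM in WT1 to WT4.

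No collagen gene passed the test between the labels. By edgeR's quasi-likelihood test with Benjamini-Hochberg adjustment over 14556 genes, 0 of the 25 collagens with enough reads to be tested had an adjusted p below 0.05, where 0.0% of all tested genes did, and DESeq2, the likelihood ratio test, limma-voom and an exact test also called 0 collagens. At an unadjusted p below 0.05 there were 3 collagens, Col18a1, Col14a1 and Col5a2, where 4.49% of all genes passed. Estimates lay mostly on one side of 0: 21 of the 25 had a negative log2 fold change (KO over WT), where 49.9% of all genes had one, and the median of the 25 was -0.23, where the median of all genes was 0.0. Only Col18a1 had 4 KO values that were all below the 4 WT values, a pattern seen in 1.39% of genes, and 0 collagens had the opposite order, seen in 1.53%. The collagen median was -0.13 without KO1, -0.15 without WT3, -0.37 without KO4 and -0.51 with the summed skeletal muscle markers as a covariate. Of the KO libraries only KO3 lay inside the WT range of these markers, so the covariate is hard to separate from the label. The genes of this matrix share cells and libraries and do not vary independently, so the count of 21 has no p-value.

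Collagen reads were between 0.431% and 0.741% of each library. Their summed level was 4358, 5077, 4623 and 6709 CPM in KO1 to KO4, against 5560, 6310, 7461 and 5809 CPM in WT1 to WT4. KO1, KO2 and KO3 were below every WT library, whereas KO4 was above all except WT3, so the labels overlapped. The mean was 5192 ± 1054 CPM in KO libraries and 6285 ± 844 CPM in WT libraries (SD, n = 4 each), a ratio of 0.826. In bulk tissue, the share of cells that make collagen and the collagen RNA of each such cell cannot be told apart.

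**Figure D1:**
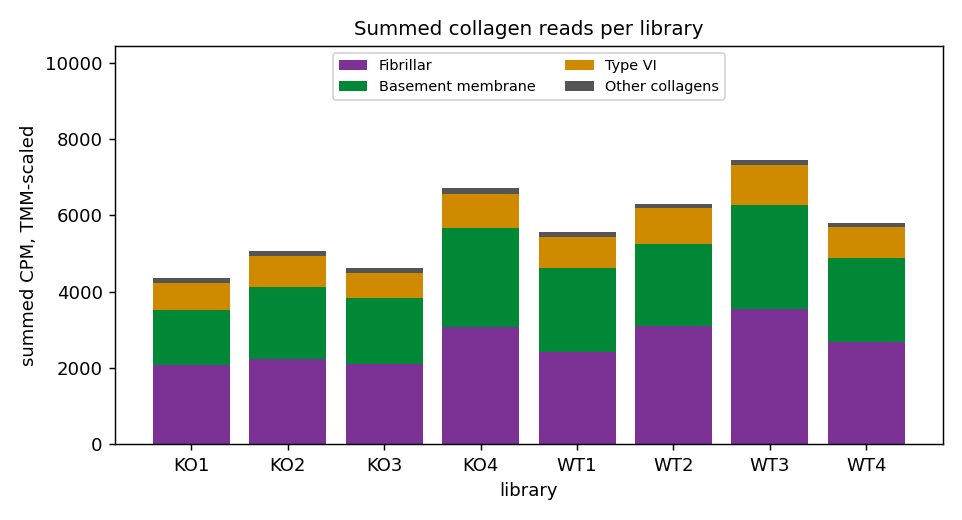
Summed collagen level of each library in TMM-scaled CPM, stacked by class, with the 4 libraries labelled KO at the left and the 4 labelled WT at the right. KO1 to KO3 stand below all WT libraries, and KO4, at 6709 CPM, stands above all of them except WT3.

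Fibrillar and basement membrane chains made up most of the collagen RNA under both labels. Levels were counted per kilobase of transcript, to allow for the length of each chain. On this scale fibrillar collagens made up 46.1% of the collagen level in KO and 46.9% in WT libraries. Basement membrane collagens made up 34.8% and 35.5%, type VI 16.4% and 15.6%, and the others 2.7% and 2.03%. Over all 8 libraries the level per kilobase was highest for Col3a1 at 193 CPM per kilobase, then Col4a1 at 139, Col4a2 at 108, Col1a2 at 99.9 and Col1a1 at 75.6. Below these came Col6a2 at 62.1 CPM per kilobase, Col15a1 at 52.6, Col6a1 at 51.7, Col18a1 at 41.7 and Col5a3 at 40.4. Per kilobase, Col4a1 was above both type I chains in 8 of 8 libraries. Col4a2 was above Col1a1 in 8 but above Col1a2 in 5, being below it in KO1, KO2 and WT2. The order of genes and the class shares assume that reads were counted equally well along every gene. The annotation and counter behind the counts are not named, and how reads over exon junctions were handled is unknown. Whether such reads were lost unevenly between genes was not tested.

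**Figure D2:**
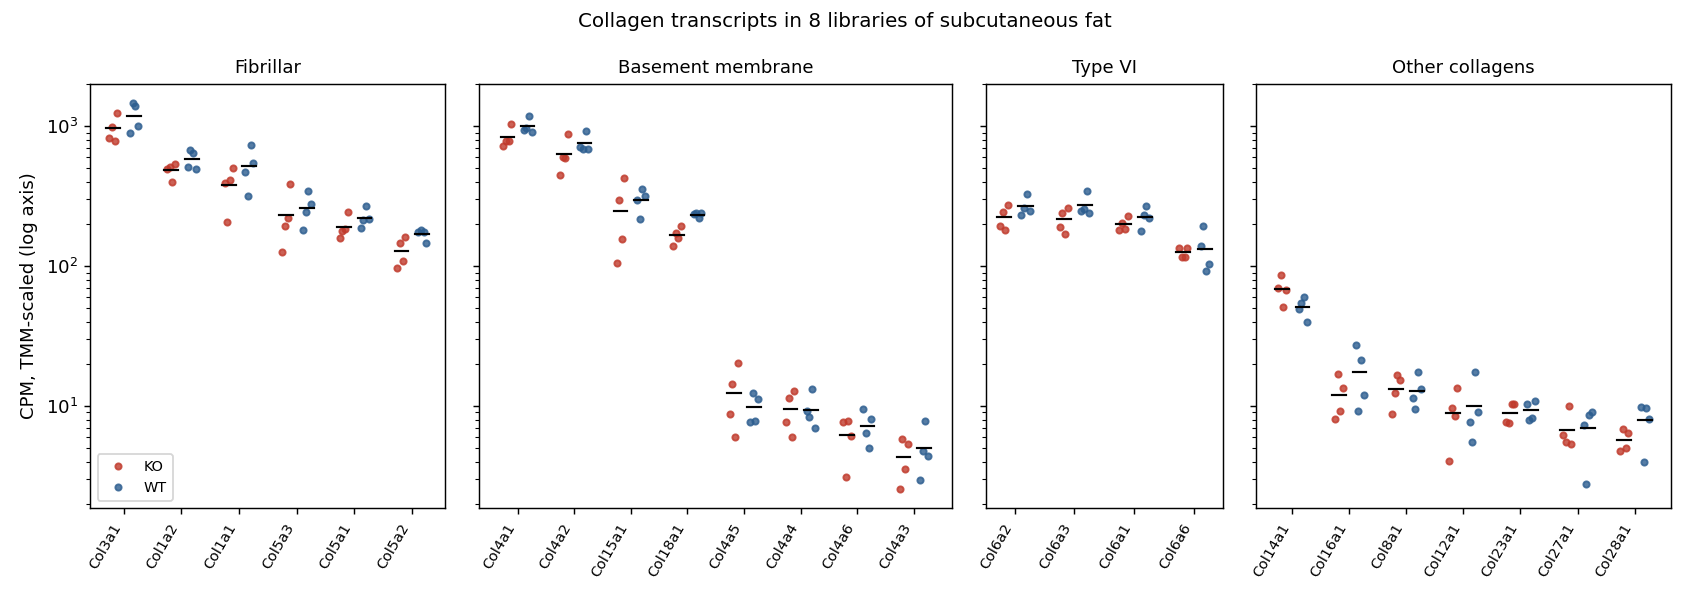
TMM-scaled CPM (log axis) of the 25 tested collagens by class, with libraries labelled KO in red left of those labelled WT in blue and a bar at each mean. The values of a label overlap the other's for every gene except Col18a1, whose KO values run up to 193 CPM and whose WT values start at 219 CPM.

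Fibrillar collagens all had negative estimates, and 0 of 6 passed the adjusted threshold. Their summed level was 2379 ± 475 CPM in KO libraries and 2942 ± 493 CPM in WT libraries (SD, n = 4 each), and single KO libraries at 2089 to 3086 CPM overlapped WT libraries at 2422 to 3549 CPM. The median log2 fold change of the 6 was -0.29, with single values between -0.45 and -0.18. It was -0.49 without KO4 and -0.60 with the muscle covariate, under which the single values lay between -0.66 and -0.37.

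Col3a1 encodes the only chain of type III collagen, which co-assembles with type I in pliable tissues such as skin and vessel walls. It was at 818, 992, 790.5 and 1253 CPM in KO1 to KO4, against 895, 1468, 1389 and 1004 CPM in WT1 to WT4. KO4 exceeded both WT1 and WT4, and the log2 fold change was -0.30 ± 0.20 (SE; edgeR adjusted p = 0.998; -0.19 without WT2). Col1a2, the smaller share of the type I helix, had 496, 509, 399 and 535 CPM in the KO libraries, against 510.2, 680.2, 645 and 499 CPM in the WT libraries. KO2 and KO4 reached above WT4, the lowest WT library, and the log2 fold change was -0.27 ± 0.15. Col1a1, the chain that makes up most of the type I helix, had 391, 207, 415 and 505 CPM in KO1 to KO4, against 474, 318, 729 and 547 CPM in WT1 to WT4. Its lowest values were in KO2 and WT2 and its highest in WT3. The log2 fold change was -0.45 ± 0.30, and it was -0.24 without KO2 and -0.23 without WT3.

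Type V collagen sits inside type I fibrils, where it starts their assembly and limits their thickness. Col5a2, one of its chains, had 97.1, 146, 109 and 162 CPM in KO1 to KO4, against 174, 182, 175 and 147 CPM in WT1 to WT4. Only KO4 was above a WT library, WT4. The log2 fold change was -0.40 ± 0.16, with a 95% interval from -0.74 to -0.06 and an unadjusted p of 0.0254 that became 0.998 after adjustment over all genes (edgeR). Col5a1, its usual partner, had a smaller estimate of -0.21 ± 0.16, between -0.35 without KO4 and -0.10 without WT3. Col5a3, another type V chain that in mice is tied to fat and glucose balance, was chosen here after its values were seen, for its spread. Over all libraries Col5a3 averaged 247 CPM, against 206 CPM for Col5a1 and 149 CPM for Col5a2. It had 127, 195, 219 and 387 CPM in KO1 to KO4, against 182, 242.4, 344 and 280.2 CPM in WT1 to WT4. KO1 was the lowest and KO4 the highest of the 8 libraries, and the log2 fold change of -0.18 ± 0.33 was -0.54 without KO4 and 0.027 without KO1.

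**Figure D3:**
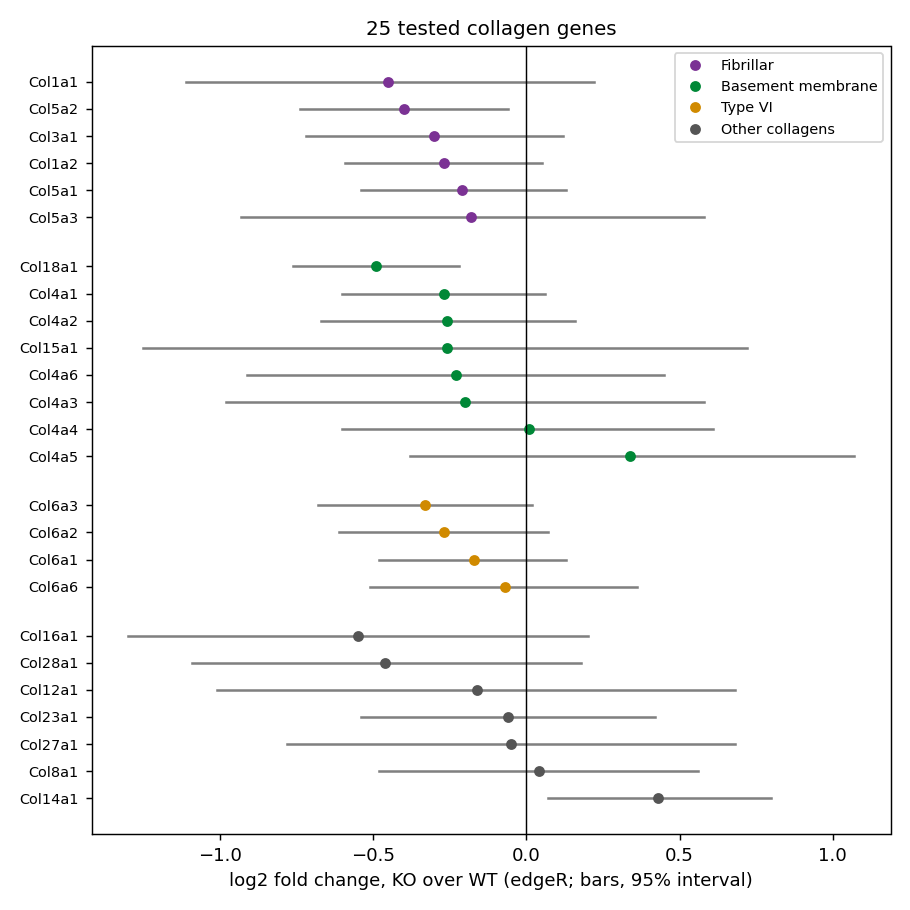
Log2 fold change of KO over WT libraries for the 25 tested collagens, by class (edgeR quasi-likelihood; bars, 95% interval, not adjusted for the number of genes). Of the 25 estimates 21 lie left of 0, and the intervals of Col18a1, Col5a2 and Col14a1 do not reach 0.

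Basement membrane collagens held the member with the smallest p, Col18a1, yet 0 of the 8 passed the adjusted threshold. Their summed level was 1913 ± 489 CPM in KO libraries and 2322 ± 269.6 CPM in WT libraries. There were 6 negative and 2 positive estimates, with a median of -0.24, which was -0.07 without KO1, -0.15 without WT3 and -0.52 with KO3 as the only KO library.

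Col4a1 and Col4a2 encode the chains of the type IV network that is found in nearly all basement membranes, that of the adipocyte included. They lie head to head and are started from one shared stretch of DNA, and the kit does not mark strand, so reads of the 22 exon bases that the annotation gives to both cannot be assigned. Col4a1 had 724, 786, 790.1 and 1040 CPM in KO1 to KO4, against 942, 979, 1186 and 913 CPM in WT1 to WT4, a log2 fold change of -0.27 ± 0.15 (-0.18 without WT3). Col4a2 had 448, 599, 597 and 886 CPM in the KO libraries, against 709, 689, 931 and 693 CPM in the WT libraries, a log2 fold change of -0.26 ± 0.19. For both genes KO1, KO2 and KO3 were below all WT libraries, and KO4 was above 3 WT libraries. Leaving out KO4 gave -0.46 for Col4a2, and leaving out KO1 or WT3 gave -0.12 or -0.14. The chains typical of the kidney filter and other special membranes, Col4a3, Col4a4, Col4a5 and Col4a6, were low, with means over all libraries between 4.66 and 11.1 CPM. Their log2 fold changes of -0.20, 0.01, 0.34 and -0.23 had standard errors between 0.28 and 0.36. The value of Col4a5 was 0.0027 without KO4, that of Col4a6 was -0.0095 without KO2, and those of Col4a3 and Col4a4 turned sign when single libraries were left out.

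Col18a1 encodes a basement membrane collagen with heparan sulfate chains, from whose end the fragment endostatin is cut. It had 376, 502, 450 and 541 reads in KO1 to KO4, against 644, 603, 614 and 652 reads in WT1 to WT4. In CPM these were 138, 172, 160.0 and 193 in the KO libraries, against 236, 240.0, 219 and 238 in the WT libraries. The labels did not overlap: the mean was 166 ± 22.8 CPM in KO and 233 ± 9.43 CPM in WT libraries. The log2 fold change was -0.49 ± 0.13 with a 95% interval from -0.76 to -0.22. Its unadjusted p of 0.00161 ranked 25 among all genes, and the adjusted p was 0.905 (edgeR). Over the alternatives the log2 fold change stayed between -0.57 and -0.41, and the adjusted p ran between 0.071 (DESeq2) and 1.0. In the authors' deposited table Col18a1 had a log2 fold change of -0.50 and an adjusted p of 0.376.

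Col15a1 encodes the close relative of Col18a1, which lies between basement membranes and the fibrils and gives the fragment restin. It was the least even of the abundant collagens among the KO libraries, with 106, 297, 157 and 428 CPM in KO1 to KO4, against 296, 216, 355 and 319.5 CPM in WT1 to WT4. KO1 was the lowest and KO4 the highest of all 8, and KO3 too was below every WT library. The coefficient of variation was 58.8% in KO and 19.8% in WT libraries, where the 1644 genes with a mean of at least 100 CPM had medians of 13.2% and 12.6%, and 1.28% of those genes were more variable than Col15a1 among the KO libraries. Its log2 fold change of -0.26 ± 0.42 was -0.67 without KO4, -0.012 without KO1 and -0.90 with the muscle covariate.

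Upstream sequences are shown for 3 genes: Col5a3 and Col15a1, the abundant collagens with the widest spread among the KO libraries, which are both lowest in KO1 and highest in KO4, and Col18a1, whose labels did not overlap. They are RefSeq sequences of build GRCm38.p6, read 5′ to 3′ along the gene, and capitals mark matches on either strand to the CCAAT box or to the GC box GGGCGG. The Col15a1 stretch is chr4:47207762-47208011 on the plus strand, and that of Col5a3 is chr9:20815068-20815317 on the minus strand; both are the 250 bases before the start. The Col18a1 stretch is chr10:77166549-77166780 on the minus strand, 232 bases that end 19 bases before 1 of its starts, and the counts do not tell its starts apart.
Col15a1: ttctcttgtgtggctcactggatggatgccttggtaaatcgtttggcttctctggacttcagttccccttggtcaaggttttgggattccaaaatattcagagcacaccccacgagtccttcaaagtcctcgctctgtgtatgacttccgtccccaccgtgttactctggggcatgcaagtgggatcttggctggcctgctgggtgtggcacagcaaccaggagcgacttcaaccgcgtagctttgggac
Col5a3: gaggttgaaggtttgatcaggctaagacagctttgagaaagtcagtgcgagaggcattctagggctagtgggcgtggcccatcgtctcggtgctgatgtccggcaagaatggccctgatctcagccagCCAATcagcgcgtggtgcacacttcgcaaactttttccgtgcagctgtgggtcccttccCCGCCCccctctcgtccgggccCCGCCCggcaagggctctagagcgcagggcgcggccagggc
Col18a1: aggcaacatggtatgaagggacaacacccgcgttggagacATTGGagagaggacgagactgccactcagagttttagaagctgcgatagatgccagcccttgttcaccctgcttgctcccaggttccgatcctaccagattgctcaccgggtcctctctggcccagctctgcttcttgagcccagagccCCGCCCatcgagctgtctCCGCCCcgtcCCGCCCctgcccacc
The Col5a3 stretch held 1 match to the CCAAT box and 2 to the GC box, that of Col18a1 held 1 and 3, and that of Col15a1 held neither, nor a TATAAA on the sense strand. RefSeq gave 28 promoter windows for 26 of the collagens, and only the 250 bases before the start were searched in each window. In these, GGGCGG on either strand was found in 57.1% of the collagen windows, where 32.7% of all 32817 windows had it. The box CCAAT on either strand was in 32.1% of the collagen windows, where 33.8% of all windows had it, and TATAAA on the sense strand was in 10.7%, where 7.6% of all had it. The motifs overlap neither each other nor themselves in the stretches shown. These are matches of letters and say nothing of what binds there. Some collagen windows lie in annotated exons, with all 250 bases in those of Col4a1, Col4a2 and Col20a1. More than 1 window was counted for 2 collagens. Base composition was not matched between the collagen windows and all windows.

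Type VI collagen is built from Col6a1, Col6a2 and a longer chain, in most tissues Col6a3, whose cut-off end is the fragment endotrophin, and mice without type VI have a weakened fat matrix. The summed level of the class was 767 ± 106 CPM in KO libraries and 898 ± 113 CPM in WT libraries, and 0 of 4 tested members passed the adjusted threshold. Col6a3 had 192, 240.6, 171 and 258.5 CPM in KO1 to KO4, against 246, 257, 344 and 239 CPM in WT1 to WT4. KO2 and KO4 were above WT4, and the log2 fold change was -0.33 ± 0.16 (-0.20 without WT3). Col6a2 had 194, 243, 182 and 271 CPM in the KO libraries, against 233, 259.5, 330.2 and 248 CPM in the WT libraries, a log2 fold change of -0.27 ± 0.16 (-0.15 without WT3). Col6a1, its neighbour on the same strand, had 180.2, 202, 186 and 229 CPM in the KO libraries, against 179, 232, 267 and 219 CPM in the WT libraries. In Col6a1 the label ranges overlapped fully, with KO1 next to WT1, the lowest, and the log2 fold change was -0.17 ± 0.14 (-0.27 without WT1 and -0.076 without WT3). The alternatives to Col6a3 stood differently in single libraries and are given here after their values were seen. Col6a6 was highest in WT2 at 194 CPM and lowest in WT3 at 92.2 CPM, the library in which Col6a1, Col6a2 and Col6a3 were highest. Col6a5, with too few reads for the test, had 15, 21, 6 and 1 reads in KO1 to KO4, against 1, 2, 8 and 7 reads in WT1 to WT4. In the authors' deposited table Col6a5 had a log2 fold change of 1.17 and an adjusted p of 0.243, and its 2 high libraries were KO1 and KO2.

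Among the other collagens the highest was Col14a1, which coats the surface of type I fibrils. It had 69.9, 86.8, 50.8 and 67.4 CPM in KO1 to KO4, against 49.6, 54.5, 60.04 and 39.8 CPM in WT1 to WT4. KO1, KO2 and KO4 were above every WT library and KO3 was inside their range. The log2 fold change was 0.43 ± 0.17 with a 95% interval from 0.07 to 0.80, an unadjusted p of 0.0243 and an adjusted p of 0.998 (edgeR). KO1, KO2 and KO4 are also the libraries with the high skeletal muscle markers: the log2 fold change of Col14a1 was -0.031 with those markers as a covariate and -0.0042 with KO3 as the only KO library. The labels overlap in these markers only through KO3, so the values are not separate checks. They were not tested further.

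Col16a1, a relative of Col14a1 on fibril surfaces, had 8.09, 16.8, 9.25 and 13.5 CPM in KO1 to KO4, against 27.2, 9.15, 21.4 and 12.0 CPM in WT1 to WT4. The WT libraries spanned 2.97-fold, and the log2 fold change of -0.55 ± 0.34 was -0.26 without WT1 and -1.23 with the muscle covariate. Col8a1, which forms a net in vessel walls, stood at 13.3 ± 3.5 CPM in KO and 12.9 ± 3.41 CPM in WT libraries, a log2 fold change of 0.04 ± 0.24 with an interval from -0.48 to 0.56. The remaining tested members, Col12a1 (a fibril-surface collagen), Col23a1 (a membrane-spanning one), Col27a1 (a fibril former of cartilage) and Col28a1, averaged between 6.83 and 9.46 CPM over all libraries and had log2 fold changes between -0.46 and -0.05. Col20a1, Col13a1, Col19a1, Col7a1 and Col17a1 had between 19 and 71 reads in all 8 libraries together and were not tested. Col7a1 and Col17a1 anchor the skin epidermis to the tissue below it.

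In some libraries, though not in all, most collagens deviated in one direction. For each gene the level of a library was set against the gene's mean over all 8, on log2(CPM + 0.5). The median of the 25 deviations was -0.33 in KO1, -0.05 in KO2, -0.20 in KO3 and 0.19 in KO4, against 0.04 in WT1, 0.05 in WT2, 0.40 in WT3 and 0.04 in WT4. KO1 was below the mean for 22 of the 25 and held the lowest value for 11, while WT3 was above the mean for 21 and held the highest value for 11. KO4 was above the mean for 21 of the 25, like WT3 and unlike the other KO libraries. KO3 was below the mean for 21 and WT4 above it for 18. The split was nearer to even in KO2, with 14 below and 11 above, and in WT1 and WT2, each with 11 below and 14 above.

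**Figure D4:**
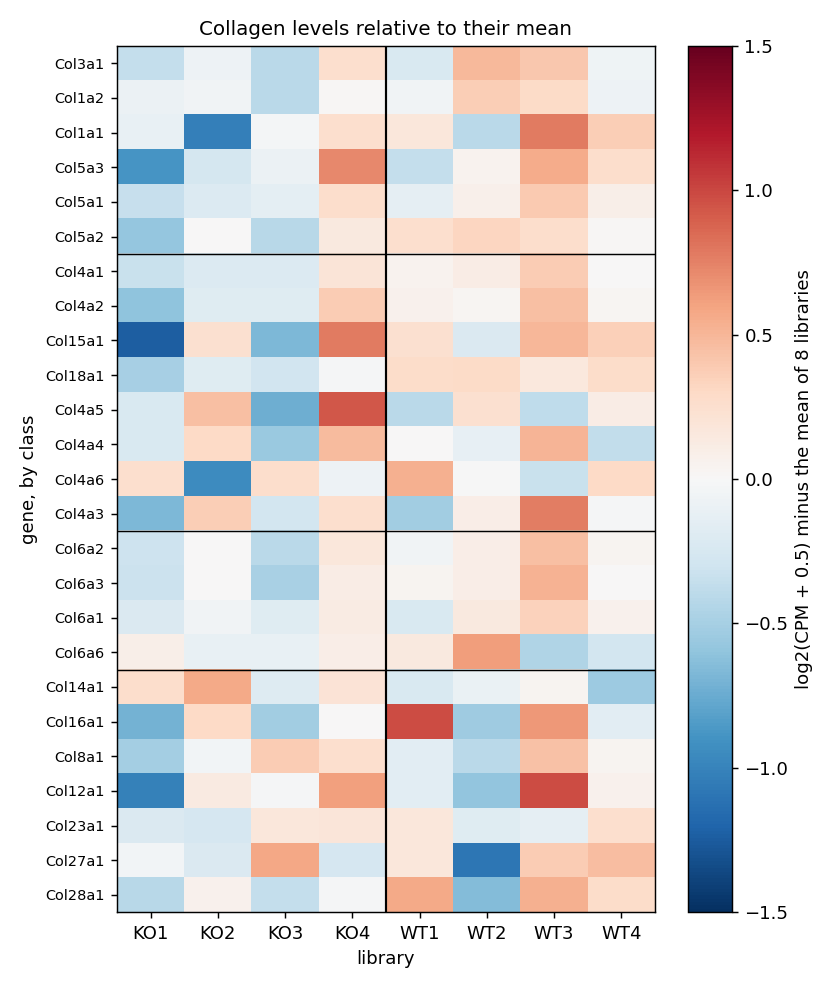
Level of each tested collagen (rows, by class) in each library (columns, KO left of WT) as log2(CPM + 0.5) minus the gene's mean over 8 libraries; red is higher and blue lower. KO1 is mostly blue and KO4 and WT3 mostly red, with medians of -0.33, 0.19 and 0.40.

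The ratio of chains that share a helix spanned between 1.32-fold and 1.58-fold over the 8 libraries in 4 pairs, 1.99-fold for Col5a3 to Col5a1 and 2.78-fold in type I. Per kilobase, Col4a1 stood to Col4a2 at 1.58, 1.28, 1.29 and 1.14 in KO1 to KO4, against 1.30, 1.38, 1.24 and 1.29 in WT1 to WT4. The ratio of Col6a1 to Col6a2 ran between 0.80 and 0.982 in KO and between 0.742 and 0.861 in WT libraries. In contrast, the ratio of Col1a1 to Col1a2 was 0.712, 0.367, 0.94 and 0.851 in KO1 to KO4, against 0.838, 0.422, 1.02 and 0.99 in WT1 to WT4. KO2 and WT2 were low in this ratio and the other 6 were between 0.712 and 1.02, so the low libraries were 1 of each label. Of Col5a1 to Col5a2 the mean ratio was 1.2 ± 0.169 in KO and 1.04 ± 0.176 in WT libraries, and of Col6a1 to Col6a3 it was 2.06 ± 0.234 and 1.83 ± 0.203. The ratio of Col5a3 to Col5a1 was 1.09, 1.51, 1.64 and 2.17 in KO1 to KO4, against 1.35, 1.55, 1.77 and 1.78 in WT1 to WT4, with the extremes in KO1 and KO4. In none of these 6 pairs were the labels apart.

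**Figure D5:**
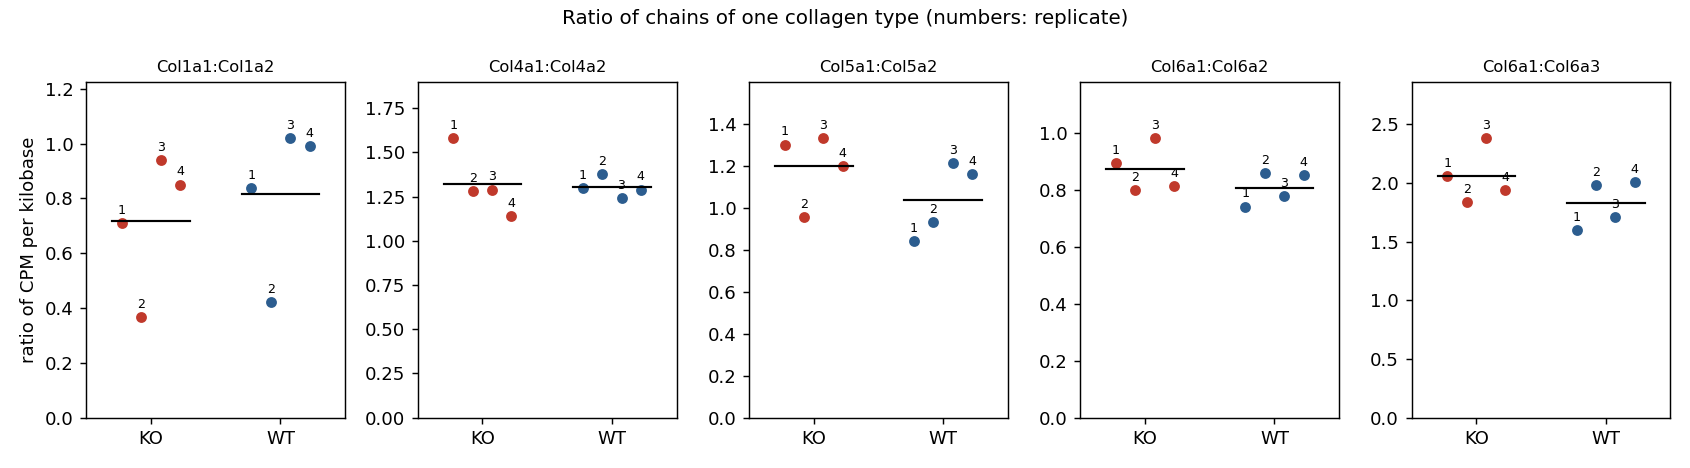
Ratio of chains of one collagen type per library, each chain in CPM per kilobase of transcript, with KO left of WT, a number for each replicate and a bar at the mean. Replicate 2 of either label is low in the ratio of Col1a1 to Col1a2, at 0.367 in KO2 and 0.422 in WT2, while the other pairs drawn span at most 1.58-fold.

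Genes that build, join, bind and degrade collagen were read from lists by role, and 0 members of any list passed the adjusted threshold (edgeR). Of 22 tested genes for the modification and secretion of collagen chains, 16 had negative estimates, with a median of -0.12. Serpinh1, the chaperone of the collagen helix (also known as HSP47), had 291, 367, 366 and 447 CPM in KO1 to KO4, against 430.2, 443, 544 and 441 CPM in WT1 to WT4, a log2 fold change of -0.34 ± 0.15. As for Col4a1, KO1 to KO3 were below all WT libraries and WT3 was the highest. Sparc, a matrix protein that binds collagen and aids its assembly, averaged 2170 ± 434 CPM in KO and 2878 ± 521 CPM in WT libraries (-0.41 ± 0.18). P4hb, a subunit of the enzyme that hydroxylates prolines in collagen, averaged 257.7 ± 22.3 CPM in KO and 319 ± 49.96 CPM in WT libraries (-0.31 ± 0.14). All 3 had unadjusted p-values between 0.0398 and 0.0411 and adjusted p-values of 0.998 (edgeR). Sparc was -0.75 with the muscle covariate, and P4hb was -0.20 without WT2.

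Of 14 tested genes for cross-linking and processing, 8 had negative estimates, with a median of -0.15. Pcolce, which speeds the trimming of procollagen ends, had -0.27 ± 0.14, Adamts14, which trims the other end, -0.62 ± 0.34, and Tgm2, a cross-linking transglutaminase, -0.14 ± 0.15. Without WT3 the values were -0.16 for Pcolce and -0.30 for Adamts14. With the muscle covariate they were -0.42 for Pcolce, -1.29 for Adamts14 and 0.10 for Tgm2, and Tgm2 was -0.067 without KO4. Of 12 collagen receptors, 7 had negative estimates, with a median of -0.03. Mrc2, which takes up collagen for breakdown, had 28.0, 75.2, 50.8 and 90.9 CPM in KO1 to KO4, against 189, 52.1, 129 and 86.1 CPM in WT1 to WT4. Its log2 fold change of -0.90 ± 0.49 stood beside a wide spread within both labels, with WT1 highest and KO1 lowest. The adjusted p was 0.998 by edgeR's quasi-likelihood test, but 0.00128 by the exact test with a common dispersion. The log2 fold change of Mrc2 was -0.54 without WT1 and -1.5 with the muscle covariate. Cd36, a fatty acid and collagen receptor, had -0.07 ± 0.16, and Antxr1, which binds type I and type VI collagen, had 0.21 ± 0.12, which was 0.034 with that covariate.

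Of 12 genes for collagen breakdown and its inhibitors, 8 had negative estimates, with a median of -0.08. Mmp14, a membrane-bound enzyme that cleaves fibrillar collagen and is needed for fat growth in mice, had 72.1, 59.0, 75.4 and 85.9 CPM in KO1 to KO4, against 101, 96.3, 91.9 and 89.0 CPM in WT1 to WT4. The labels did not overlap, and the log2 fold change was -0.37 ± 0.13 (unadjusted p = 0.0121, adjusted p = 0.998, edgeR). Over the 104 tested genes of all the lists, 3 had KO values all below the WT values (2.88%, against 1.39% of all genes) and 2 had them all above (1.92%, against 1.53%). Named after their values were seen, the others were Plod3 (-0.24 ± 0.12) and Glt25d1 (-0.14 ± 0.10), which modify lysines of collagen, on the lower side, and Loxl3, a cross-linking oxidase (0.14 ± 0.15), and Tgfbr3, a TGF-beta co-receptor (0.11 ± 0.11), on the higher side. Reck, an inhibitor of Mmp14, averaged 25.04 ± 6.55 CPM in KO and 17.5 ± 4.77 CPM in WT libraries, a log2 fold change of 0.52 ± 0.23 that was -0.022 with the muscle markers as a covariate. Timp2, an inhibitor of the same enzymes, had 0.17 ± 0.17, which was -0.17 with that covariate and 0.048 without WT4.

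Of 15 partners of collagen in basement membranes, 12 had negative estimates, with a median of -0.10. Hspg2, the proteoglycan perlecan, averaged 842 ± 115 CPM in KO and 969 ± 116 CPM in WT libraries (-0.20 ± 0.15), and Lama5, a laminin chain, had -0.25 ± 0.16. Hspg2 was -0.12 without KO1, and Lama5 was -0.38 without WT2 and -0.13 without WT1. Small proteoglycans of the fibril surface had 5 positive and 4 negative estimates, with a median of 0.01, among them Prelp at -0.09 ± 0.15, Podn at 0.39 ± 0.37 and Lum, lumican, at -0.23 ± 0.37. Podn was 0.12 without KO1 and 0.90 with the muscle covariate, while Lum was 0.066 without WT1 and -1.27 with the covariate. Prelp was 0.028 without WT1 and -0.28 with the covariate. Genes of TGF-beta signalling, a main inducer of collagen, had 11 positive and 9 negative estimates, with a median of 0.02. Of these, Ltbp3 and Ltbp2, proteins that store latent TGF-beta or sit on the same microfibrils, had -0.26 ± 0.13 and 0.38 ± 0.23. With the muscle covariate Ltbp3 was -0.084 and Ltbp2 was 0.83, and Ltbp2 was 0.21 without KO3.

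Markers of the cells that could supply collagen did not all lie on the side of the collagens. Of 11 markers of fibroblasts and progenitors, 7 had positive and 4 negative estimates, where 49.9% of all genes had negative ones. Without Gsn, the most abundant, their sum was 889.8, 1103, 703 and 979 CPM in KO1 to KO4, against 787, 842, 873 and 678 CPM in WT1 to WT4. Only for this list is a sum without the most abundant gene given. With Gsn the sum ran between 6645 and 9554 CPM in KO and between 8738 and 12147 CPM in WT libraries. Its mean was then lower in KO libraries, on the side of the collagens, at 7986 ± 1536 CPM against 9806 ± 1585 CPM (SD). Summed markers overlapped between labels for adipocytes (13932 to 17970 CPM in KO, 14063 to 16793 in WT), endothelium (853 to 1073, against 944 to 1033) and smooth muscle (703 to 978, against 804 to 1039). Macrophage markers overlapped too, at 647 to 899 CPM in KO and 662 to 947 CPM in WT libraries. All 18 skeletal muscle markers had positive estimates, with a median of 2.88. Schwann cell markers stood at 628 CPM in KO1, the library lowest in collagen, and at 292 to 332 CPM in the other KO libraries, against 299 to 383 CPM in WT libraries. Liver markers stood at 109.8 to 455 CPM in KO libraries, against 1292 and 1124 CPM in WT1 and WT4 and 124 to 198 CPM in the other WT libraries. The skin epithelium genes of the table, 2 of the 7 listed, summed to at most 2.49 CPM in KO and 20.3 CPM in WT libraries. The mesothelium list had 1 of 3 genes in the table, at no more than 2.84 CPM, and the cartilage and tendon list had 3 of 6, at no more than 15.8 CPM. Apart from the muscle covariate, the part of these markers in the collagen values was not tested.

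In the authors' deposited table, which tests all 18022 genes with p-values adjusted over them, 0 of the 31 collagens had an adjusted p below 0.05, where 2.42% of its genes did. The smallest adjusted p among the collagens in the authors' deposited table was the 0.243 of Col6a5, followed by the 0.376 of Col18a1. The exact test with a common dispersion, run here, called 436 genes, as did that table. It also gave Col18a1 the same adjusted p of 0.376, so it is not a separate check.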

How the data were processed

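Poly(A) RNA libraries were unstranded, going by the kit named in the labels' protocols. FastQC, Bowtie2, edgeR and the build mm9 appear in the submitters' processing notes, with no version, and no source used here names the counter or the annotation. Whole-number read counts for each Ensembl gene were deposited by the authors without normalization, as was a table of 1 comparison with log2 fold changes and p-values, edgeR's columns per the file headers. Labels and replicate numbers came from the sample titles, and mouse identifiers mark separate animals.

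From the counts, edgeR 4.0.16 (R 4.3.3) was run with filterByExpr (14556 of 18022 genes kept), TMM scaling, a robust quasi-likelihood fit with the label as the only term, and Benjamini-Hochberg adjustment over all tested genes at 0.05. Libraries held 2617755 to 2873457 reads, and the common dispersion of 0.0337 equals a coefficient of variation of 18.4%. Each standard error was taken as the estimate divided by the root of F. Levels per kilobase use the principal protein-coding transcript of GENCODE M21. The test was tried on simulated data. Libraries of a label differed by a mean chi-square over genes of 4.45 or more, so none was a copy of another.

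The collagens, gene lists and rules were chosen with earlier results of these data known. Named were, per class, the 3 most abundant collagens and the 2 with the smallest p, and per list the most abundant gene and the 2 with the smallest p; all 31 collagens are accounted for. Alternatives were other scaling factors, filters and thresholds, DESeq2 1.42.0, the likelihood ratio test, limma-voom (limma 3.58.1), an exact test with one common dispersion, a fit without the robust option, the replicate number as a block, muscle markers as a covariate, and libraries left out.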

Additional observations from a re-analysis of the deposited data

Results flagged for a closer look

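Within a label, 1 library stood far from the other 3 by Dixon's criterion (a gap of over 0.829 of the range) for 2 of 42 gene and label groups checked, and chance flags about 1 in 20 groups. Col4a2 was at 931 CPM in WT3, against 689 to 709 CPM in the other WT libraries. Col6a3 was at 344 CPM in WT3, against 239 to 257 CPM in the other WT libraries. WT3 had the highest median collagen level of the 8 libraries.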

How the results depend on the processing

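No collagen was called under any of the 21 alternatives. Over all genes, DESeq2 called 36, the likelihood ratio test 34 and an exact test under a single dispersion 436, where the quasi-likelihood test called 0 (653 at an unadjusted p below 0.05); leaving out 1 library gave 0 to 50 (without KO3), and the cause was not tested. The collagen median of -0.23 was -0.51 with the muscle covariate, the cause was not tested, and -0.37 (without KO4) to -0.13 (without KO1) with 1 library left out, with 18 to 23 negative values. The basement membrane and type VI medians were -0.50 and -0.47 with that covariate. With the replicate number as a block the collagen median was -0.26 and 0 were called. To look for pairing, the label's mean of each gene was subtracted from its log CPM. These deviations correlated at -0.144 to -0.291 between same-numbered KO and WT libraries. For 0 libraries was the best correlation in the other label that with their own number. These values gave no sign that the numbers pair the mice, and the labels do not say what the numbers mark. Of 875 single-gene values, 828 kept their direction and side of the threshold, 46 in 17 genes turned sign and 1 (Mrc2, exact test, adjusted p = 0.00128) passed it. Given with the muscle covariate first and without KO1, KO2 and KO4 second, the turned values were -0.24 and -0.69 for Col4a5, -0.83 and -0.64 for Col4a4, 0.053 and 0.11 for Col4a6, -0.031 and -0.0042 for Col14a1, 0.15 and 0.14 for Col23a1, 0.37 and 0.50 for Col27a1, 0.10 and 0.095 for Tgm2, -0.17 and -0.17 for Timp2, and -0.022 and -0.12 for Reck. Col4a4 was also at -0.0021 with upper-quartile factors and -0.0025 with the replicate block, and Col6a6 at 0.099 with limma-voom. With 1 library left out, the genes that turned ran over the intervals -0.54 to 0.027 (Col5a3), -0.17 to 0.22 (Col4a4), -0.39 to 0.11 (Col4a3), -0.21 to 0.17 (Col6a6), -0.085 to 0.23 (Col8a1), -0.43 to 0.26 (Col12a1), -0.13 to 0.023 (Col23a1), -0.30 to 0.10 (Col27a1), -0.15 to 0.016 (Cd36), -0.16 to 0.028 (Prelp) and -0.42 to 0.066 (Lum). Fits with KO3 as the only KO library assume that it varies like the WT libraries. Fits with the muscle covariate are not separate checks from these, as the labels overlap in muscle markers only through KO3. The 6 collagens with 19 to 71 reads in all libraries together were too shallow to test.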
